A study of Mus musculus with 3 samples.

Results

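The aryl hydrocarbon receptor pathway was examined in activated CD4 T cells through 7 genes, which were the receptor Ahr, its partner Arnt, its repressor Ahrr and the classic target genes Tiparp, Cyp1a1, Cyp1b1 and Nqo1. Members were all 16 probe sets that carried only the symbol of 1 of these genes, out of 18193 genes named by the array annotation. RNA came from CD4+CD25- T cells of spleen and lymph node, purified from female mice aged 6 to 8 weeks on the BALB/c background that lacked both Stat6 and T-bet (gene Tbx21). The cells of every group carried both deletions and had been activated over 2 days by anti-CD3 bound to the plate (5 ug/ml) together with anti-CD28 (1 ug/ml). The 3 groups received IL-6 and TGFbeta (10 and 5 ng/ml), IL-6 and IL-23 (10 ng/ml each), or only TGFbeta (5 ng/ml). Each group was measured on 1 array, so the groups have no replicates, no p-value can be given, and every ratio compares these arrays. The study set the IL-6/TGFbeta cells against the TGFbeta cells to find genes of Th17 polarization, and against the IL-6/IL-23 cells to separate genes tied to IL-10 from those tied to IL-17. All 3 groups received cytokine, and the labels of none mention an added AHR ligand.

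AHR is a transcription factor of the bHLH-PAS family that rests in the cytosol with heat shock protein 90 and moves to the nucleus when it binds a ligand, such as a tryptophan metabolite, a dietary indole or dioxin. There it pairs with ARNT and binds DNA at dioxin response elements, which switches on cytochrome P450 genes and also the genes of its own feedback inhibitors. In helper T cells AHR is known for its high level in Th17 cells, for its need in IL-22 production and for a part in IL-10 production by regulatory cells of type 1.

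Values are quantile-normalized intensities in arbitrary units, and levels of different probe sets cannot be set against each other. A floor of 74.9 was set from probe sets of 65 genes restricted to other tissues. Values under it cannot be ordered and were set to the floor before ratios were taken. If 1 of the arrays compared lay at the floor the fold is a minimum, written "at least", and if both did no ratio was read. The rule for calling a gene higher or lower was a ratio of 2-fold or more. With 1 array per group, error could be judged only from how far the log2 ratios of a gene's 2 brightest probe sets lay apart. The SD of this difference, taken from the median absolute deviation, was divided by the square root of 2. It thus stands for the ratio of a single probe set, not for the distance between a pair. This probe-set spread had an SD of 0.22 over 3390 genes when IL-6/TGFbeta was set against TGFbeta. The SD was 0.29 over 3357 genes for IL-6/TGFbeta against IL-6/IL-23, and 0.29 over 3353 genes in the remaining comparison. It leaves out the differences between cultures, mice and arrays. Deposited medians were 28.1, 17.8 and 35.8 on the IL-6/TGFbeta, IL-6/IL-23 and TGFbeta arrays. Of the 16 probe sets, 10 were above the floor on at least 1 array and 5 on every array, while Ahrr and Nqo1 were below it throughout.

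Stat6 read 223, 191 and 259 and Tbx21 read 118, 205 and 190 on the IL-6/TGFbeta, IL-6/IL-23 and TGFbeta arrays. The deleted part of either gene is not given in the sources used here, so these readings do not check the labels. All 7 T cell markers with a probe set of their own were above the floor on every array, and Cd4 read 716, 904 and 1333. None of the 4 B cell markers was above the floor on any array. Of 8 myeloid markers, 1, 0 and 1 were above it, with sums of 79.4, 0 and 153, and of 5 CD8 and NK cell markers 2, 2 and 3 were above it, with sums of 184, 294 and 392. The part of these other cells in the results below was not tested.

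**Figure D1:**
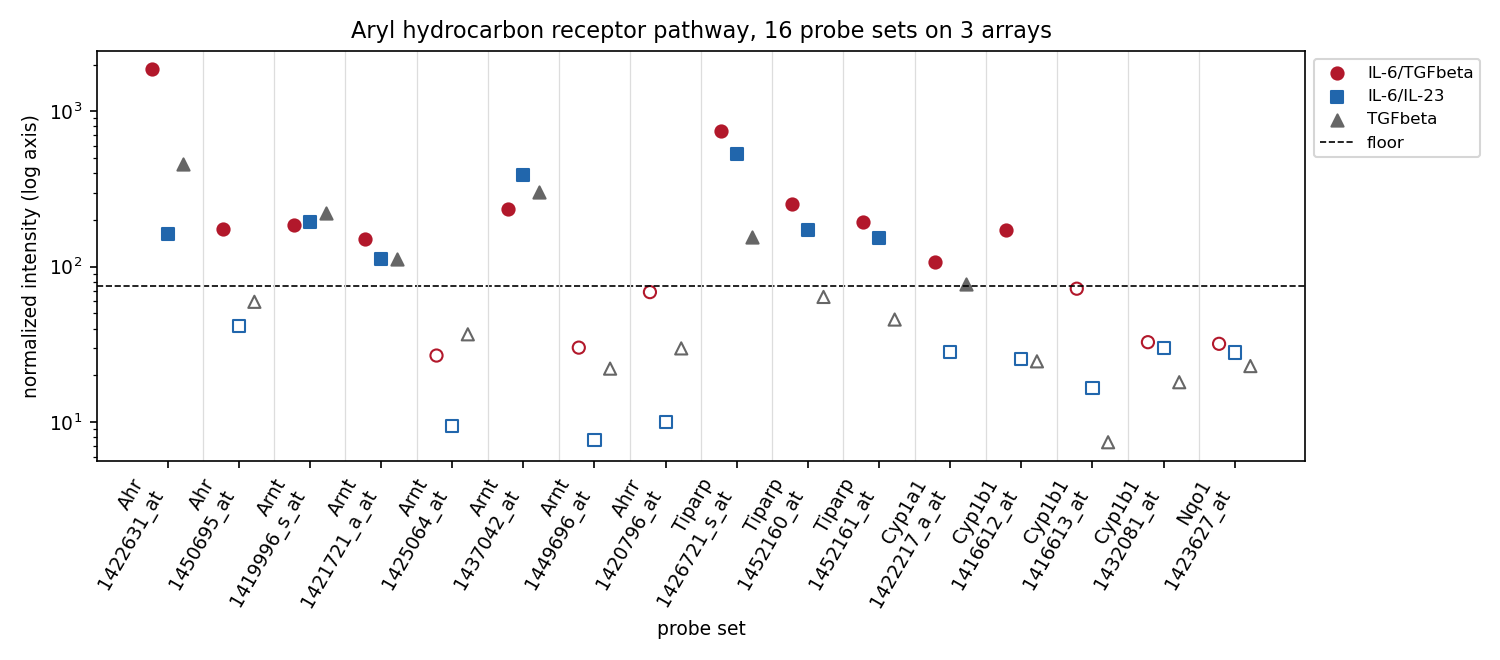
Normalized intensity (log axis) of the 16 probe sets of the pathway on the IL-6/TGFbeta, IL-6/IL-23 and TGFbeta arrays. Filled points lie above the floor (dashed line at 74.9), open points below it. The IL-6/TGFbeta point is the highest of the 3 for both Ahr and all 3 Tiparp probe sets, and for the brightest Cyp1b1 probe set it is the only one above the floor.

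The receptor itself was highest with IL-6/TGFbeta. Ahr (chr12:35497979-35534989, GRCm38.p6) read 1861 with IL-6/TGFbeta, 163 with IL-6/IL-23 and 456 with TGFbeta in its brightest probe set, 1422631_at. The level was thus highest with IL-6/TGFbeta, intermediate with TGFbeta and lowest with IL-6/IL-23, and each step was larger than the probe-set spread. That spread is typical of many genes, and the 2 Ahr probe sets themselves lay further apart. For IL-6/IL-23 over TGFbeta they gave -1.48 and, with a floor at the 90th percentile, -0.53. Ahr was 4.08-fold higher with IL-6/TGFbeta than with TGFbeta (log2 ratio 2.03), the ratio ranked 45 from the top among 8621 genes read. It was 11.4-fold higher with IL-6/TGFbeta than with IL-6/IL-23 (3.51), rank 9 from the top among 8764 genes. With IL-6/IL-23 it was 2.80-fold lower than with TGFbeta (-1.48), rank 108 from the bottom among 8697 genes. In bulk RNA, fewer cells that carry a transcript and less of it per cell cannot be told apart.

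The second Ahr probe set, 1450695_at, was dimmer. It read 174 with IL-6/TGFbeta, and below the floor, at 41.3 with IL-6/IL-23 and 59.4 with TGFbeta. Its level with IL-6/TGFbeta was therefore at least 2.32-fold that of either other treatment, and its IL-6/IL-23 to TGFbeta ratio was not read. With the floor at the 90th percentile of the same tissue-restricted probe sets, in place of the 95th, all 3 values were above it. The ratios of this probe set were then 4.21-fold for IL-6/TGFbeta over IL-6/IL-23, 2.93-fold for IL-6/TGFbeta over TGFbeta, and -0.53 on the log2 scale for IL-6/IL-23 over TGFbeta. That last value has the sign of the brighter probe set, but it does not reach the 2-fold rule and is less than 2 SD of the probe-set spread. The lower Ahr level with IL-6/IL-23 than with TGFbeta thus rests on 1 probe set for its size.

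Arnt (chr3:95434367-95497240), the partner that AHR needs to bind DNA, was within 2-fold between all 3 cultures. Its brightest probe set, 1437042_at, read 235 with IL-6/TGFbeta, 389 with IL-6/IL-23 and 303 with TGFbeta. Probe set 1419996_s_at read 184, 194 and 221, and probe set 1421721_a_at read 150, 113 and 112, in the same order of arrays. None of these 3 was 2-fold apart in any comparison after quantile normalization, and their signs differed, with log2 ratios of -0.36, -0.26 and 0.42 for IL-6/TGFbeta over TGFbeta. For IL-6/TGFbeta over IL-6/IL-23 the ratios were -0.72, -0.07 and 0.41. Without scaling between arrays, 1419996_s_at (-1.19) and 1421721_a_at (-1.03) passed the 2-fold rule as lower with IL-6/IL-23 than with TGFbeta, where the median of all measured genes was -0.85. The remaining Arnt probe sets, 1425064_at and 1449696_at, were below the floor on every array.

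**Figure D2:**
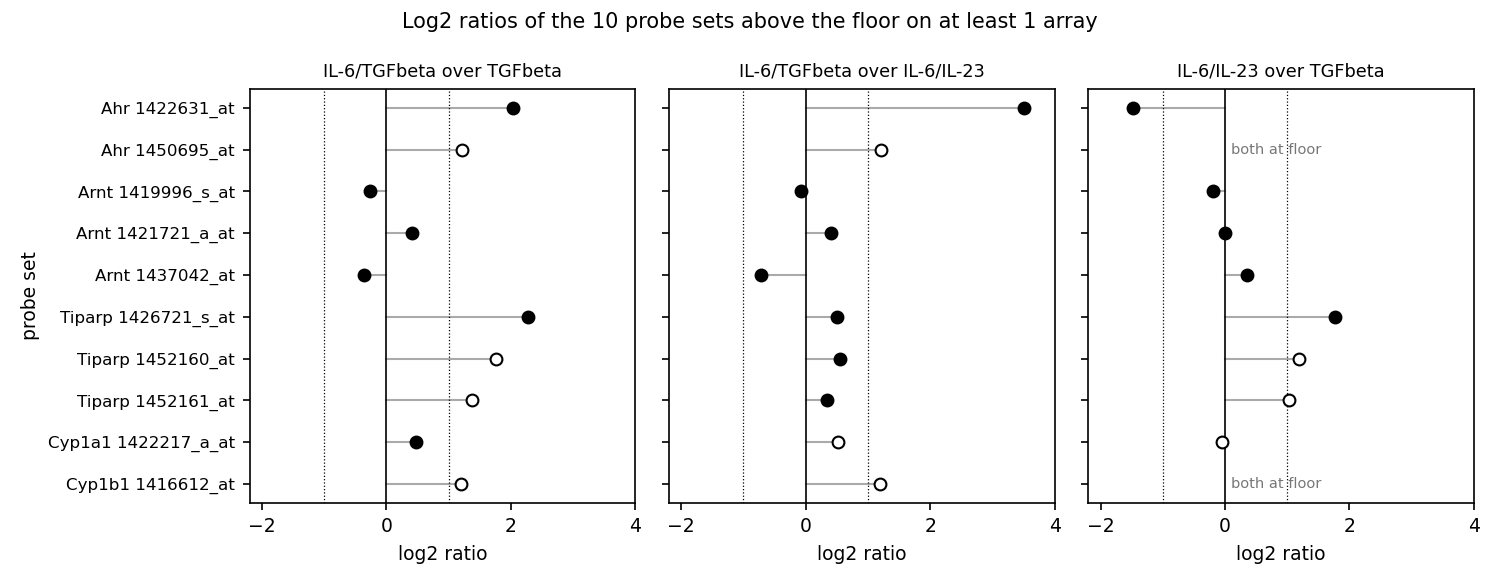
Log2 ratios of the 10 probe sets above the floor on at least 1 array, in the 3 comparisons. Filled points were measured on both arrays, open points are bounds against the floor, and dotted lines mark 2-fold. Ahr lies at 2.03, 3.51 and -1.48, while Tiparp 1426721_s_at lies at 2.28, 0.51 and 1.77.

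Ahrr (chr13:74211118-74292331), which competes with AHR for ARNT and is itself switched on by AHR, could not be ranked between cultures. Its single probe set read 68.6 with IL-6/TGFbeta, 10.0 with IL-6/IL-23 and 29.8 with TGFbeta, all below the floor. With the floor at the 90th percentile the IL-6/TGFbeta array alone was above it, and Ahrr was at least 1.75-fold higher there than on either other array, which is short of the 2-fold rule.

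Because the receptor and some of its target genes differed between cultures, the promoter windows of the target genes are shown. RefSeq windows of GRCm38.p6, reaching from 250 bases before to 50 after an annotated start of transcription, were matched for 6 of the 7 members, Ahr not among them. A gene can have several such starts (32851 windows for 27025 genes), and 1 window is used per member. That of Cyp1a1 lies inside the span of the gene given below, not at its outer end. The core letters of the dioxin response element, GCGTG, were searched on both strands. Capitals mark GCGTG, which reads CACGC where it lies on the other strand, and in Ahrr also the longer TNGCGTG, which contains it.
Tiparp, chr3:65528197-65528496, + strand: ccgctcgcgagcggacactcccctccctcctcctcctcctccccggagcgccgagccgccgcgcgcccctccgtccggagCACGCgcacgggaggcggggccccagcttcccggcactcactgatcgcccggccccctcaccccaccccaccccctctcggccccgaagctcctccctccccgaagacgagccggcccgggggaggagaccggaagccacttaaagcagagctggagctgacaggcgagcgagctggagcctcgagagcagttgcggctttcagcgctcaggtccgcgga
Cyp1b1, chr17:79715012-79715311, - strand: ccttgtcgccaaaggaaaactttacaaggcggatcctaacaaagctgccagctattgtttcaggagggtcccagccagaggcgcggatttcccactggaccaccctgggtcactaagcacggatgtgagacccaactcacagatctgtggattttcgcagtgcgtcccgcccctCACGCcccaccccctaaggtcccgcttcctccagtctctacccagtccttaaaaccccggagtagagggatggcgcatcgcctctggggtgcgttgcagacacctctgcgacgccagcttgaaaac
Cyp1a1, chr9:57697363-57697662, + strand: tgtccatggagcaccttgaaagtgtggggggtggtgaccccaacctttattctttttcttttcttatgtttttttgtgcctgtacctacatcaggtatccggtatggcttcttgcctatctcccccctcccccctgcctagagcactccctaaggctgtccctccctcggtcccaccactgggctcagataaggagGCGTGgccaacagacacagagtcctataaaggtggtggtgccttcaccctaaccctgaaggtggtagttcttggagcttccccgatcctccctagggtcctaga
Ahrr, chr13:74292282-74292581, - strand: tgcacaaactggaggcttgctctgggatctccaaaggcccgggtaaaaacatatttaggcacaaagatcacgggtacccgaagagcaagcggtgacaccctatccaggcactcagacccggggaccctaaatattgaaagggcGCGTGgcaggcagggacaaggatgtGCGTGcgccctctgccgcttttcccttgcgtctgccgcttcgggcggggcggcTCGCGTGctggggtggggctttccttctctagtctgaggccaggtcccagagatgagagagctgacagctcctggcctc
The match began 170 bases before the start in Tiparp, 76 in Cyp1b1 and 54 in Cyp1a1, and Ahrr held 3 matches, beginning 107, 82 and 27 bases before it. GCGTG was in 5 of the 6 member windows, Nqo1 being the exception, and in 32.4% of all 32851 windows. TNGCGTG was in 1 of the 6, that of Ahrr, and in 5.07% of all windows. The core of the antioxidant response element, TGACNNNGC, was in the window of Arnt and no other member, and in 12.4% of all windows. These matches describe the letters in the window alone, and the well-known AHR-responsive enhancer of Cyp1a1 lies further upstream than this window reaches.

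Tiparp (chr3:65528447-65555518) was high in both cultures that received IL-6. It encodes an ADP-ribosyltransferase that AHR induces and that in turn limits AHR activity. Its brightest probe set, 1426721_s_at, read 751 with IL-6/TGFbeta, 527 with IL-6/IL-23 and 155 with TGFbeta. It was 4.86-fold higher with IL-6/TGFbeta than with TGFbeta (2.28), rank 27 from the top of 8621 genes, and 3.41-fold higher with IL-6/IL-23 than with TGFbeta (1.77), rank 88 of 8697. IL-6/TGFbeta over IL-6/IL-23 gave 1.42-fold (0.51), below the 2-fold rule and less than 2 SD of the probe-set spread.

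The other Tiparp probe sets had the same order of arrays. Probe set 1452160_at read 253 with IL-6/TGFbeta, 172 with IL-6/IL-23 and 63.9 with TGFbeta, the last below the floor. Probe set 1452161_at read 195, 153 and 45.7. Over TGFbeta they were at least 3.38-fold and 2.60-fold higher in the IL-6/TGFbeta culture. The corresponding minimum for the IL-6/IL-23 culture was 2.29-fold and 2.05-fold. For IL-6/TGFbeta over IL-6/IL-23 they gave 1.47-fold and 1.27-fold. Tiparp and Ahr therefore differed in order, since the IL-6/IL-23 culture had the lowest Ahr signal and a Tiparp signal well above that of the TGFbeta culture. Without scaling between arrays the ratio of IL-6/IL-23 over TGFbeta was 0.82 in the brightest Tiparp probe set, below the 2-fold rule. It was 0.37 in 1452160_at and at least 0.44 in 1452161_at, where the median of all measured genes was -0.85. For IL-6/TGFbeta over IL-6/IL-23, 1452160_at (1.12) then passed the 2-fold rule, where that median was 0.41.

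Cyp1b1 (chr17:79706940-79715061), a cytochrome P450 that hydroxylates estrogens and polycyclic hydrocarbons, was above the floor in 1 culture. Probe set 1416612_at read 172 with IL-6/TGFbeta, and below the floor, at 25.4 with IL-6/IL-23 and 24.6 with TGFbeta. Cyp1b1 in the IL-6/TGFbeta culture thus exceeded either other culture at least 2.29-fold, or at least 4.39-fold with the floor at the 90th percentile. Probe set 1416613_at read 72.2, 16.5 and 7.42 and probe set 1432081_at read 32.7, 29.9 and 18.1, all below the floor. The Cyp1b1 result rests on 1 of its 3 probe sets.

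Cyp1a1 (chr9:57687928-57703824), the P450 enzyme most often used as a readout of AHR activity, was near the floor. Its probe set read 107 with IL-6/TGFbeta, 28.4 with IL-6/IL-23 and 77.7 with TGFbeta, so the TGFbeta value lay just above the floor and the IL-6/IL-23 value below it. It was 1.38-fold higher with IL-6/TGFbeta than with TGFbeta (0.47) and at least 1.43-fold above the IL-6/IL-23 level, both short of the 2-fold rule. The bound over IL-6/IL-23 depends on the floor and was at least 2.74-fold with the floor at the 90th percentile. Nqo1 (chr8:107388225-107403205), a quinone reductase gene that both AHR and NRF2 can switch on, read 31.9, 28.0 and 22.9, below the floor on every array.

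Of the 7 members, 5 were read for IL-6/TGFbeta over TGFbeta, 5 over IL-6/IL-23 and 4 for IL-6/IL-23 over TGFbeta. Ahrr and Nqo1 could not be called in any comparison, nor Cyp1b1 in the last. Counted by the 2-fold rule, 3 of the 5 members read (Ahr, Tiparp and Cyp1b1) were higher with IL-6/TGFbeta than with TGFbeta and 0 were lower. Among all 8621 genes read, 2.66% were higher and 1.95% lower. Over IL-6/IL-23, 2 members (Ahr and Cyp1b1) were higher with IL-6/TGFbeta and 0 were lower, against 3.78% higher and 3.17% lower among 8764 genes. For IL-6/IL-23 over TGFbeta, 1 member was higher (Tiparp) and 1 lower (Ahr), against 3.36% higher and 3.21% lower among 8697 genes. Cyp1b1 was read only because it was above the floor with IL-6/TGFbeta, so its direction was set by that filter. The comparisons share arrays. The IL-6/TGFbeta and TGFbeta cultures differed in IL-6 alone, while the IL-6/IL-23 culture differed from each other culture in more than 1 cytokine.

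Among other genes of the pathway, those listed as reported AHR targets included genes that differed in both directions. Of 24 listed, 19 had a probe set of their own and 9 were read for IL-6/TGFbeta over TGFbeta, with 4 higher and 2 lower, where 2.66% and 1.95% of all genes read were. Over IL-6/IL-23, 8 were read, with 5 higher and 0 lower, where 3.78% and 3.17% of all genes were. For IL-6/IL-23 over TGFbeta, 7 were read, with 1 higher and 3 lower, where 3.36% and 3.21% of all genes were. Gpr15, the gene of a gut-homing receptor, was above the floor with IL-6/TGFbeta alone (156) and Scin, the gene of an actin-severing protein, with TGFbeta alone (164). The filter therefore set the direction of Gpr15 and Scin wherever they were counted, and that of Entpd1 in both comparisons with the IL-6/IL-23 culture. These counts are a description only, and Gpr15 was named after its values were seen.

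Ikzf3, which encodes the lymphocyte transcription factor Aiolos, read 1359 with IL-6/TGFbeta, 221 with IL-6/IL-23 and 327 with TGFbeta. Its log2 ratio was 2.06 for IL-6/TGFbeta over TGFbeta and 2.62 over IL-6/IL-23. Lpxn, which encodes the adaptor protein leupaxin, read 4615, 1988 and 1528 on the same arrays, with ratios of 1.59 and 1.21. Both were highest with IL-6/TGFbeta, as Ahr was.

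Socs2, an inhibitor of cytokine receptor signalling, instead read 1379 with IL-6/TGFbeta, 220 with IL-6/IL-23 and 3199 with TGFbeta. It was lower with IL-6/TGFbeta than with TGFbeta (-1.21), higher than with IL-6/IL-23 (2.65), and lower with IL-6/IL-23 than with TGFbeta (-3.86). Entpd1, the gene of the ATP-degrading ectoenzyme CD39, read 371, 33.6 and 214 on these arrays, and its IL-6/TGFbeta level was at least 4.95-fold that with IL-6/IL-23. Scin, above the floor with TGFbeta alone, was at least 2.19-fold lower in the IL-6/TGFbeta culture. Plin2, a lipid droplet protein gene, read 427 with IL-6/TGFbeta, 750 with IL-6/IL-23 and 199 with TGFbeta, a ratio of 1.91 for IL-6/IL-23 over TGFbeta. Socs2 thus had its lowest level with IL-6/IL-23, where Entpd1 was below the floor, and Scin and Plin2 had other orders. For Ikzf3 the IL-6/IL-23 and TGFbeta cultures were apart by -0.56, less than 2 SD of the probe-set spread.

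**Figure D3:**
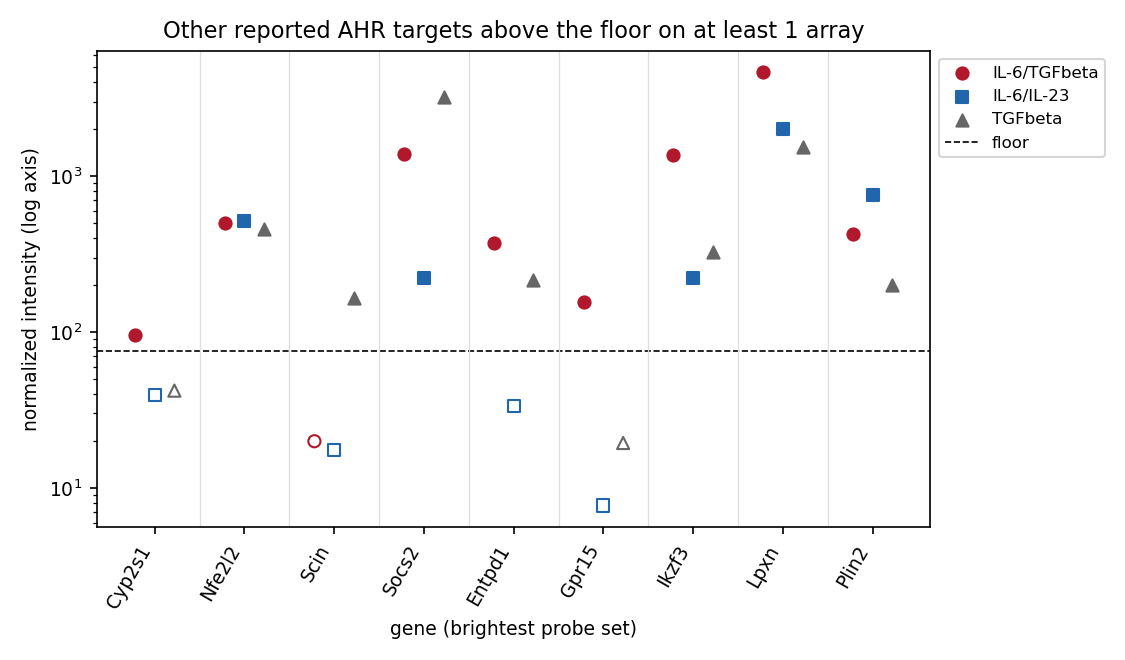
Normalized intensity (log axis) of the 9 other reported AHR targets above the floor on at least 1 array, for the IL-6/TGFbeta, IL-6/IL-23 and TGFbeta arrays. Filled points lie above the floor (dashed line at 74.9). Ikzf3 and Lpxn are highest with IL-6/TGFbeta, at 1359 and 4615, and Socs2 and Scin are highest with TGFbeta, at 3199 and 164.

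Genes of the receptor complex and its coactivators were counted by the same 2-fold rule. Of 14 listed, 11 had a probe set of their own and 10 were read in each comparison. For IL-6/TGFbeta over TGFbeta 0 were higher and 1 was lower (median -0.13). In the other comparisons 0 were higher and 0 lower (medians 0.14 over IL-6/IL-23 and -0.23 for IL-6/IL-23 over TGFbeta). Of all genes read, 2.66%, 3.78% and 3.36% were higher and 1.95%, 3.17% and 3.21% lower in these comparisons. The medians of all genes read were 0.02, -0.04 and 0.06. With 10 genes read, such counts do not set the list apart from all genes. The lower gene was Nrip1, a nuclear receptor corepressor, which read 293 with IL-6/TGFbeta, 315 with IL-6/IL-23 and 607 with TGFbeta (-1.05). Hsp90aa1, the chaperone that holds AHR in the cytosol, was named after its values were seen and read 10742, 9707 and 10916.

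Of 16 relatives in the bHLH-PAS family and its PER clock proteins, 6, 5 and 6 were read for IL-6/TGFbeta over TGFbeta, IL-6/TGFbeta over IL-6/IL-23 and IL-6/IL-23 over TGFbeta. The numbers higher were 1, 0 and 1 and those lower were 1, 1 and 1. Of all genes read in these comparisons, 2.66%, 3.78% and 3.36% were higher and 1.95%, 3.17% and 3.21% lower. With so few relatives read, the counts are a description only. Hif1a, the oxygen-regulated factor that also pairs with ARNT, read 7006 with IL-6/TGFbeta, 6815 with IL-6/IL-23 and 3320 with TGFbeta. It was higher than with TGFbeta in both cultures with IL-6 (1.08 and 1.04). Npas2, a clock factor, was above the floor with TGFbeta alone, at 156, and at least 2.08-fold lower in both other cultures, a direction that the filter set. Per1, a clock repressor, read 91.6, 257 and 162, and was lower with IL-6/TGFbeta than with IL-6/IL-23 (-1.49).

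Of 21 genes of the NRF2 pathway, the oxidative stress response that shares Nqo1 with AHR, 18 had a probe set of their own and 14 were read for IL-6/TGFbeta over TGFbeta, with 1 higher and 0 lower. Over IL-6/IL-23, 15 were read, with 0 higher and 0 lower, and for IL-6/IL-23 over TGFbeta 15 were read, with 1 higher and 0 lower. Of all genes read in the 3 comparisons, 2.66%, 3.78% and 3.36% were higher and 1.95%, 3.17% and 3.21% lower. The NRF2 counts are too small to be set apart from these shares. The NRF2 gene counted higher was Gsr, glutathione reductase, at 501 with IL-6/TGFbeta, 611 with IL-6/IL-23 and 239 with TGFbeta (1.07 and 1.35 over TGFbeta). Of 15 genes listed for tryptophan uptake and metabolism, 3 were read in each comparison (Slc7a5, Slc3a2 and Wars) and 0 were higher or lower. The other 12, with Ido1, Ido2 and Tdo2 among them, were below the floor on every array. The medians of the 3 genes read were -0.13, -0.21 and 0.21. These are RNA levels, and the supply of AHR ligands was not measured.

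The genes whose pattern over the 3 arrays was most like that of Ahr were found by the Euclidean distance between log2 levels, after subtracting each gene's mean, among 7845 other genes above the floor on every array. With 3 arrays such a pattern has few degrees of freedom, so the order is a description. Maf, a transcription factor gene, was nearest at a distance of 0.09 log2 units, reading 4388 with IL-6/TGFbeta, 351 with IL-6/IL-23 and 1031 with TGFbeta. It was followed by Gatm (0.21), which encodes an enzyme of creatine synthesis, the metal transporter gene Slc39a8 (0.43), Aplp2 (0.53), Spsb1 (0.54), Pdpn (0.60), Sbk1 (0.60) and the prion protein gene Prnp (0.65). All 8 were highest with IL-6/TGFbeta and lowest with IL-6/IL-23, which the rule itself favours. Among the other members above the floor on every array, Tiparp lay at a distance of 2.56 and ranked 4289, and Arnt ranked 7333. Ahr itself differed widely between arrays, so a gene with equal levels on all 3 also lies far from it. These ranks therefore do not tell a different pattern from an unchanging one.

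**Figure D4:**
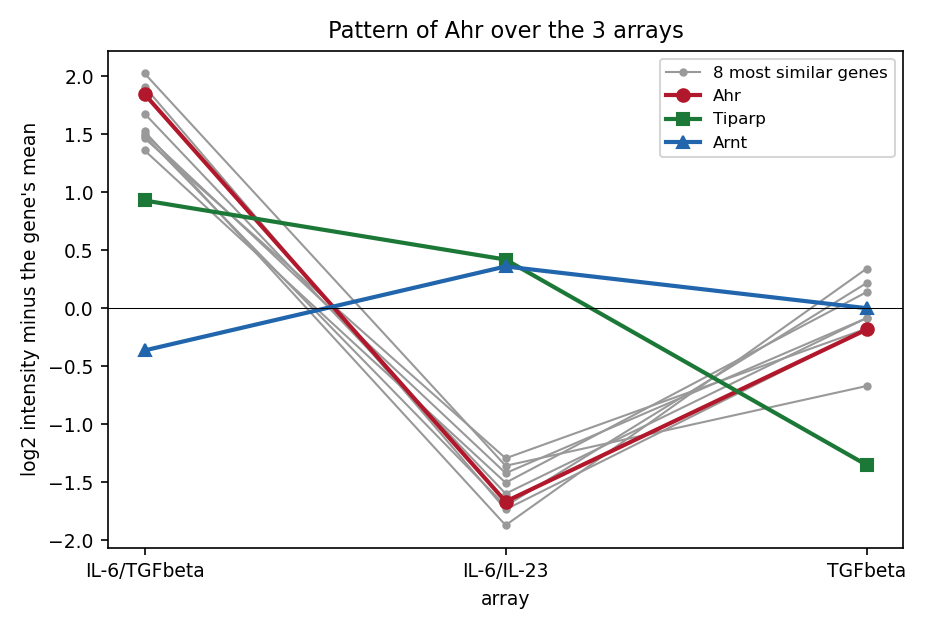
Log2 intensity minus the gene's own mean on the IL-6/TGFbeta, IL-6/IL-23 and TGFbeta arrays, for Ahr, the 8 genes with the nearest pattern, Tiparp and Arnt. The 8 genes follow Ahr within 0.65 log2 units of distance, while Tiparp has its low point with TGFbeta and lies at 2.56.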

How the data were processed

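RNA of 3 cultures was measured on 1 Affymetrix mouse array each, from biotinylated cRNA as the labels describe. What was deposited is a linear intensity for each of 45101 probe sets on each array. How probes were summarized, corrected for background and scaled was not given in the sources used here. Without the 64 control probe sets, log2 intensities (values under 1 raised to 1) were quantile-normalized with limma 3.58.1 in R 4.3.3, which removes any difference in total mRNA. Of the rest, 34945 probe sets carried 1 symbol, 932 several and 9160 were unnamed here. Symbols came from the platform annotation, and 34741 probe sets matched the RefSeq table of GRCm38.p6 by Entrez identifier. The brightest probe set on average stood for a gene. The floor was the 95th percentile of 109 tissue-restricted probe sets. All lists, members and alternatives were chosen with earlier results of these data known. Named genes were the members, Stat6 and Tbx21, up to 4 genes past 2-fold per list and comparison, and the 8 genes most like Ahr. Cd4 was named from the marker list. The other T cell markers, Hsp90aa1, Gpr15, the tryptophan genes and the genes like Tiparp were named after their values were seen. Precision is limited by having 1 array per culture and, for dim probe sets, by the floor. Alternatives covered scaling, the floor and the choice of probe set.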

Additional observations from a re-analysis of the deposited data

How the results depend on the processing

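Ahr kept its direction in every setting in which it could be read, and no value past 2-fold changed sign. Its log2 ratio lay between 1.21 and 2.03 for IL-6/TGFbeta over TGFbeta, between 1.21 and 4.03 over IL-6/IL-23, and between -2.48 and -0.79 for IL-6/IL-23 over TGFbeta (not readable with the second brightest probe set). Tiparp lay between 1.51 and 2.28 for IL-6/TGFbeta over TGFbeta. Some of these ends are bounds against the floor, so the difference is at least that large. They are the Ahr values of 1.21 (second brightest probe set) and -0.79 (floor at the 99th percentile), and the Tiparp value of 1.51. The count of 3 members higher with IL-6/TGFbeta than with TGFbeta became 2 with the floor at the 99th percentile and 2 with the second brightest probe set, Cyp1b1 being the one below the floor in both. The count of 2 members higher with IL-6/TGFbeta than with IL-6/IL-23 became 3 with the floor at the 90th percentile, where Cyp1a1 was added (at least 1.46). It became 1 with the floor at the 99th percentile and 1 with the second brightest probe set, where fewer probe sets exceed the floor, and 4 with an offset of 16 and no floor, where Cyp1a1 (1.48) and Ahrr (1.70) were added. For IL-6/IL-23 over TGFbeta, the 1 member higher became 0 without scaling (Tiparp at 0.82). The 1 member lower became 0 with the floor at the 99th percentile and 0 with the second brightest probe set, and 2 with the offset, where Cyp1a1 was added at -1.08.

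Scaling moved the median log2 ratio of measured genes to -0.08, -0.22 and 0.13 (median scaling) and to -0.42, 0.41 and -0.85 (none) in the order IL-6/TGFbeta over TGFbeta, IL-6/TGFbeta over IL-6/IL-23 and IL-6/IL-23 over TGFbeta. Genes past 2-fold in these comparisons numbered 229, 331 and 292 higher and 168, 278 and 279 lower after quantile normalization. They numbered 176, 252 and 342 higher and 213, 421 and 280 lower after median scaling, and 111, 940 and 73 higher and 622, 115 and 3013 lower without scaling. With the floor at the 99th percentile they were 115, 170 and 143 higher and 74, 135 and 131 lower, and with the offset 454, 646 and 651 higher and 363, 651 and 546 lower. The number of genes read also changed. For IL-6/TGFbeta over TGFbeta it was 8621 in the main setting, 5863 at the 99th percentile and 18193 with the offset. The shares higher were 2.66%, 1.96% and 2.50%, and the shares lower 1.95%, 1.26% and 2.00%. Leaving Mbp, which T cells can express, out of the floor list was chosen after seeing the data. It set the floor at 54.7, changed no count of members and made Ahrr readable (at least 1.25-fold higher with IL-6/TGFbeta). Signal over background limits Ahrr, Nqo1, Cyp1a1 and Cyp1b1. No paired analysis was possible because each group has 1 array.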

Other observations

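The pattern of Tiparp, high in both cultures with IL-6, was followed up after its values were seen, by the same distance over 7845 other genes. The nearest was Ppp1r3b (distance 0.22), which encodes a subunit that targets a phosphatase to glycogen and read 777 with IL-6/TGFbeta, 459 with IL-6/IL-23 and 164 with TGFbeta. Id2, an inhibitor of E proteins, came next (0.26) and read 2704, 2279 and 710 on the same arrays. Il7r, the receptor chain for IL-7, was also among the 8 nearest (0.27) and read 676, 447 and 169. Rpl41, a ribosomal protein gene, was among them as well, at 15573, 15470 and 3232. Smim3, Flot1, Adarb1 and Sema4f made up the rest. All 8 were lowest with TGFbeta, which the rule itself favours. Every level given here is from 1 array.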
